A study of Mus musculus with 10 samples.

Results

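Proteasome subunits, their activators and their assembly factors were followed through a design with 4 sides in mouse FDB1 cells. The members were all genes whose platform symbol starts with Psm, followed by a letter from a to g and a digit. This gave 50 genes of 15097 with a symbol, among 20243 measured features. Of the 50, 48 are proteasome genes. Psmc3ip, a partner of meiotic recombinases, and Psme3ip1, a partner of the activator encoded by Psme3, match the symbol rule without being subunits. They form a class of their own and are part of the counts over all 50. The 48 comprised 8 core alpha subunits, 7 constitutive core beta subunits, the thymus beta subunit Psmb11, 3 immunoproteasome catalytic subunits, 6 cap ATPases, 11 other cap subunits, 3 cap assembly factors, 4 core assembly factors, 2 genes of the PA28 activator of the immunoproteasome, and 3 further regulators (Psme3, Psme4 and Psmf1). Psme2 had no probe of its own symbol. The probe listed under Psme2b, a close paralog, stood in for it and may detect both.

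The proteasome is the cell's main machine for degrading ubiquitin-tagged proteins. Its core is a stack of rings, with alpha subunits (Psma) gating the entry and beta subunits (Psmb) cutting the chain inside. The cap binds ubiquitin through its non-ATPase subunits (Psmd) and unfolds the substrate with a ring of ATPases (Psmc). In immune cells and under interferon, the beta subunits Psmb8, Psmb9 and Psmb10 replace Psmb5, Psmb6 and Psmb7 in newly built cores, and the PA28 ring of Psme1 and Psme2 can take the place of the cap. This form, the immunoproteasome, is known for making peptides that the transporter Tap1 and its partners load on MHC class I molecules.

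FDB1 cells are mouse myeloid progenitors that depend on the cytokine IL-3 for growth and can mature into neutrophils and macrophages. Both lines carried FI-Delta, a constitutively active form of the receptor beta chain used by IL-3, GM-CSF and IL-5, and in one of them this chain had the further change Y577F. The 4 RNA groups were Y577F cells at 72 h without IL-3, FI-Delta cells at 72 h without it, Y577F cells growing with IL-3 in medium with serum (0 h) and FI-Delta cells growing with it (0 h). They were hybridised in pairs to 10 two-colour spotted oligonucleotide arrays. Numbers in the array titles were read as 2 cultures a line, and the titles do not say that they are cultures. Neither a parental line without FI-Delta nor cells kept for 72 h with IL-3 were analysed here, so the effect of losing the cytokine cannot be told apart from that of washing or of days in culture. Whether a line was 1 clone is not given in the sources used here.

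The time points were compared on 2 arrays in Y577F cells (Y577F arrays 1 and 2) and on 3 arrays in FI-Delta cells (FI-Delta arrays 1, 2 and 3, where the first pair carried 1 set of extracts with the dyes swapped). The lines were compared on 2 arrays with RNA of 72 h (72 h arrays 1 and 2) and on 3 with RNA of 0 h (0 h arrays 1, 2 and 3). Values for single arrays are the deposited log ratios, read as log2 and turned so that a positive value means higher at 72 h or higher in Y577F cells. So turned, FI-Delta arrays 1 and 2, read as the same extracts, correlated at -0.135 over the 50 members and at 0.236 over all features. FI-Delta arrays 1 and 3, with the same dye order, correlated at 0.646 and 0.539. The labels state neither the log base nor the direction. Cy5 over Cy3 is likely, since limma writes ratios that way, and turning it would turn every direction given here. At 0 h, array 1 had the dyes the other way round. After turning, it correlated with arrays 2 and 3 at 0.0871 and -0.0374 over all features, and at -0.0958 and -0.324 over the 50 members. The 2 marker genes given next have large ratios and were chosen after their values were seen. On 0 h arrays 1, 2 and 3, Elane, a neutrophil granule protease, had ratios of -1.73, -1.70 and -1.43. Fcer1a, a mast cell receptor chain, had 1.14, 1.06 and 0.93. Chosen in this way, they cannot show that the 3 arrays agree for other genes. Values with ± are log2 changes and standard errors from 1 limma model over 9 hybridisations, in which each comparison also draws on the other 3, so a modelled change need not lie between the values of its own arrays. A gene was called at a Benjamini-Hochberg adjusted p under 0.05 over all 20243 features. The p-values treat arrays that share RNA extracts as independent. The RNA came from whole cultures, in which fewer cells of a type and less RNA per cell cannot be told apart. Of the marker lists, 8 of 9 monocyte and macrophage genes rose over time in Y577F cells and 7 of 9 did so in FI-Delta cells, while 1 of 11 neutrophil granule genes rose and 4 fell in Y577F cells and 8 of 11 rose in FI-Delta cells. Of 8 mast cell and basophil genes, 1 rose and 3 fell in Y577F cells (range -1.06 to 0.35) and 4 fell in FI-Delta cells (range -2.57 to 0.03). Of 5 erythroid and megakaryocyte genes, 1 rose and 2 fell in Y577F cells (range -1.82 to 0.44) and 2 fell in FI-Delta cells (range -1.99 to 0.12). The lines differed in markers at 0 h too. There, 9 of 11 neutrophil granule genes were lower in Y577F cells (range -1.83 to -0.02). Higher were 3 of 9 monocyte and macrophage genes (range -0.27 to 0.59), 2 of 8 mast cell and basophil genes (range -0.11 to 1.14) and 1 of 5 erythroid and megakaryocyte genes (range 0.09 to 0.61). Of all features, 0.934% were higher and 0.484% lower at 0 h. Of 6 lymphoid markers, 0 were called by limma in any comparison, with at most 1 at an unadjusted p under 0.05. Over all features, 9.28% rose and 8.75% fell over time in Y577F cells, and 5.19% rose and 2.97% fell in FI-Delta cells.

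The promoters of 42 members could be read from the RefSeq table (build GRCm38.p6), as windows of 300 bases that end 50 bases after the start. They were searched on both strands for 5 motifs: TGANNNNGC (the core of the antioxidant response element), the core of the interferon-stimulated response element (GAAA repeated after a gap of 2 bases), TTCNNNGAA (the core of the gamma-activated site), CCAAT (the NF-Y box) and CCGGAAG (an ETS core). In all member windows, 2 matches overlapped a match of another motif. The members differed by class in the ETS core. It was found in 9 of 14 cap subunit windows (64.3%), in 0 of 11 core subunit windows and in 0 of 5 windows of immunoproteasome and PA28 genes, against 9.12% of 27025 windows of all genes. The core of the antioxidant response element stood in 8 of 11 core subunit windows (72.7%) and in 5 of 14 cap windows (35.7%), against 41.4% of all windows. The NF-Y box stood in 6 of 11 core windows (54.5%) and 4 of 14 cap windows (28.6%), against 37.9%. Among the immunoproteasome and PA28 genes, the core of the interferon-stimulated response element was found in 1 of 5 windows (Psme1, at position 9, after the start), against 3.49%. That of the gamma-activated site was found in 1 of 5, against 8.47%. Neither was particular to this class. The first stood in 2 of 6 assembly factor, 1 of 11 core and 1 of 14 cap windows, and the second in 1 of 6, 0 of 11 and 1 of 14. Over the 42 members the shares were 11.9% and 7.14%. A match is a run of letters and not a shown binding site. The 5 promoters below were picked by hand, and each holds a match. They are given as the 250 bases before the start, with matches of any of the 5 motifs in capitals. Among the 5 immunoproteasome and PA28 genes, the windows of Psmb10 and Psme2b held no match of any motif and are not printed. The Psme2b window is that of the paralog itself, on chromosome 11. The promoter of Psme2 was not searched, so the motif counts over these 5 windows do not cover it. Psmb8 lies on chr17:34197945-34198194 (plus strand), with the gamma-activated site core TTCCCAGAA starting at position -97 (the start base is 0). Psmb9 lies on chr17:34187331-34187580 (minus strand). Its start is 226 bases from that of Tap1, which runs the other way, so the printed run holds the whole stretch between these genes. Psmd12 (chr11:107479278-107479527, plus strand) and Psmc6 (chr14:45329574-45329823, plus strand) are cap genes with an ETS core, and Psma2 (chr13:14612992-14613241, plus strand) is a core gene with an NF-Y box.
Psmb8: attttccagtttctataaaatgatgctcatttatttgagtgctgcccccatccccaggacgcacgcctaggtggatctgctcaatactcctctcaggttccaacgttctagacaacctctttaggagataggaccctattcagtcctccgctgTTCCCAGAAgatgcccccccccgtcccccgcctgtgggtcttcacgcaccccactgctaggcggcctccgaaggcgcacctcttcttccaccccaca
Psmb9: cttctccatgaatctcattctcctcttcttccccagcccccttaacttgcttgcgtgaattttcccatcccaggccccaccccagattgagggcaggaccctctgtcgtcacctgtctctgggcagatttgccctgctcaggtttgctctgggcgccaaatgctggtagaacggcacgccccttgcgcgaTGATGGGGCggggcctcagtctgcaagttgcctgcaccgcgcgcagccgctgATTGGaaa
Psmd12: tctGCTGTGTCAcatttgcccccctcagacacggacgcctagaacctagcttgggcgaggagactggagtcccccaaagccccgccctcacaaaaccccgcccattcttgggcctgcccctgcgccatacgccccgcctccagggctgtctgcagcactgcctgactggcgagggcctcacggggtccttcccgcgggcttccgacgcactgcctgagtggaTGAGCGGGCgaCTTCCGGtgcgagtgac
Psmc6: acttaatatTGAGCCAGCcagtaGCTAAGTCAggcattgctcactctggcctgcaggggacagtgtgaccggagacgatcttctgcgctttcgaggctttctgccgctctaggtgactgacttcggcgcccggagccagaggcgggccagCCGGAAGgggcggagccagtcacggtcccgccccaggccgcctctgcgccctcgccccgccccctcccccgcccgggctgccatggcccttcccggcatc
Psma2: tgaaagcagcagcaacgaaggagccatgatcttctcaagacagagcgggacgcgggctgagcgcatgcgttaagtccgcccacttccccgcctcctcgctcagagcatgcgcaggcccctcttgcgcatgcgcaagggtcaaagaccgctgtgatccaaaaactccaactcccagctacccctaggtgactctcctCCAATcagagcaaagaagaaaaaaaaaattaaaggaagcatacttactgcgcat

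**Figure D1:**
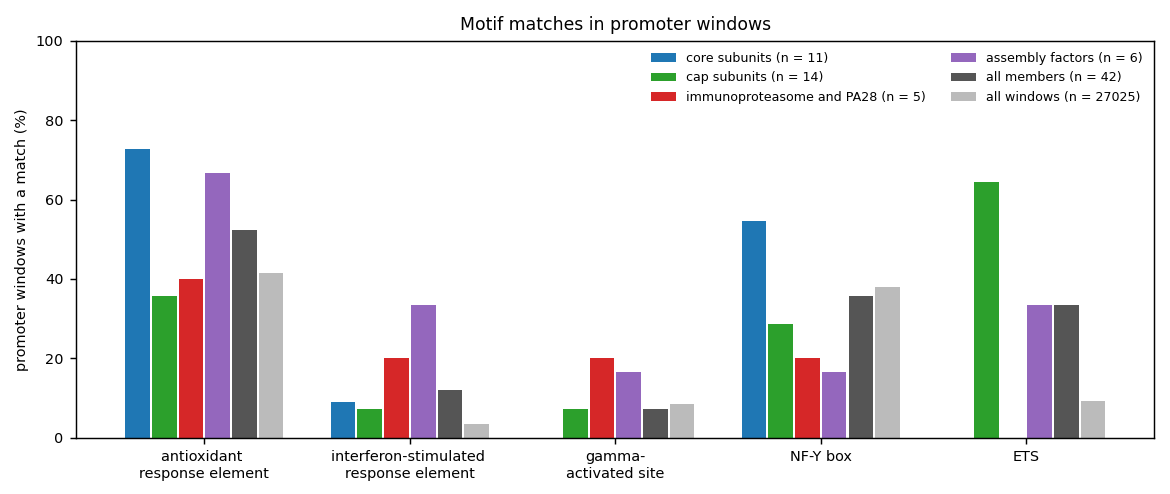
Share of promoter windows (%, y axis) with at least 1 match of each of 5 motifs (x axis), in core subunits, cap subunits, immunoproteasome and PA28 genes, assembly factors, all members and all windows. The ETS core was matched in 64.3% of cap windows and in 0 of 11 core windows, against 9.12% of all windows.

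Across the 50 members, the change over time in Y577F cells held the most calls. There, 14 members were lower and 2 higher at 72 h, where 8.75% of all features were called lower and 9.28% higher. The median member changed by -0.20, against 0.01 over all features, and 38 of 50 values were negative (36 of 48 without Psmc3ip and Psme3ip1). In FI-Delta cells the median member changed by -0.02, with 2 members lower and 1 higher, where 2.97% of all features were lower and 5.19% higher. At 72 h, 5 members were higher in Y577F cells than in FI-Delta cells and 5 were lower, where 6.44% and 6.45% of all features were called in these directions. As a share of all members this is close to the background. All 5 that were higher belonged to the immunoproteasome group of 5, and all 5 that were lower to the 32 core and cap subunits. One of the 5, Psme1, was called lower at 72 h when control spots of the gene were averaged in (-0.33, adjusted p 0.0137). At 0 h, limma called 0 members in either direction, where 0.934% of features were higher and 0.484% lower. At 0 h 3 members had an unadjusted p under 0.05, and each of 22 other settings also called 0.

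**Figure D2:**
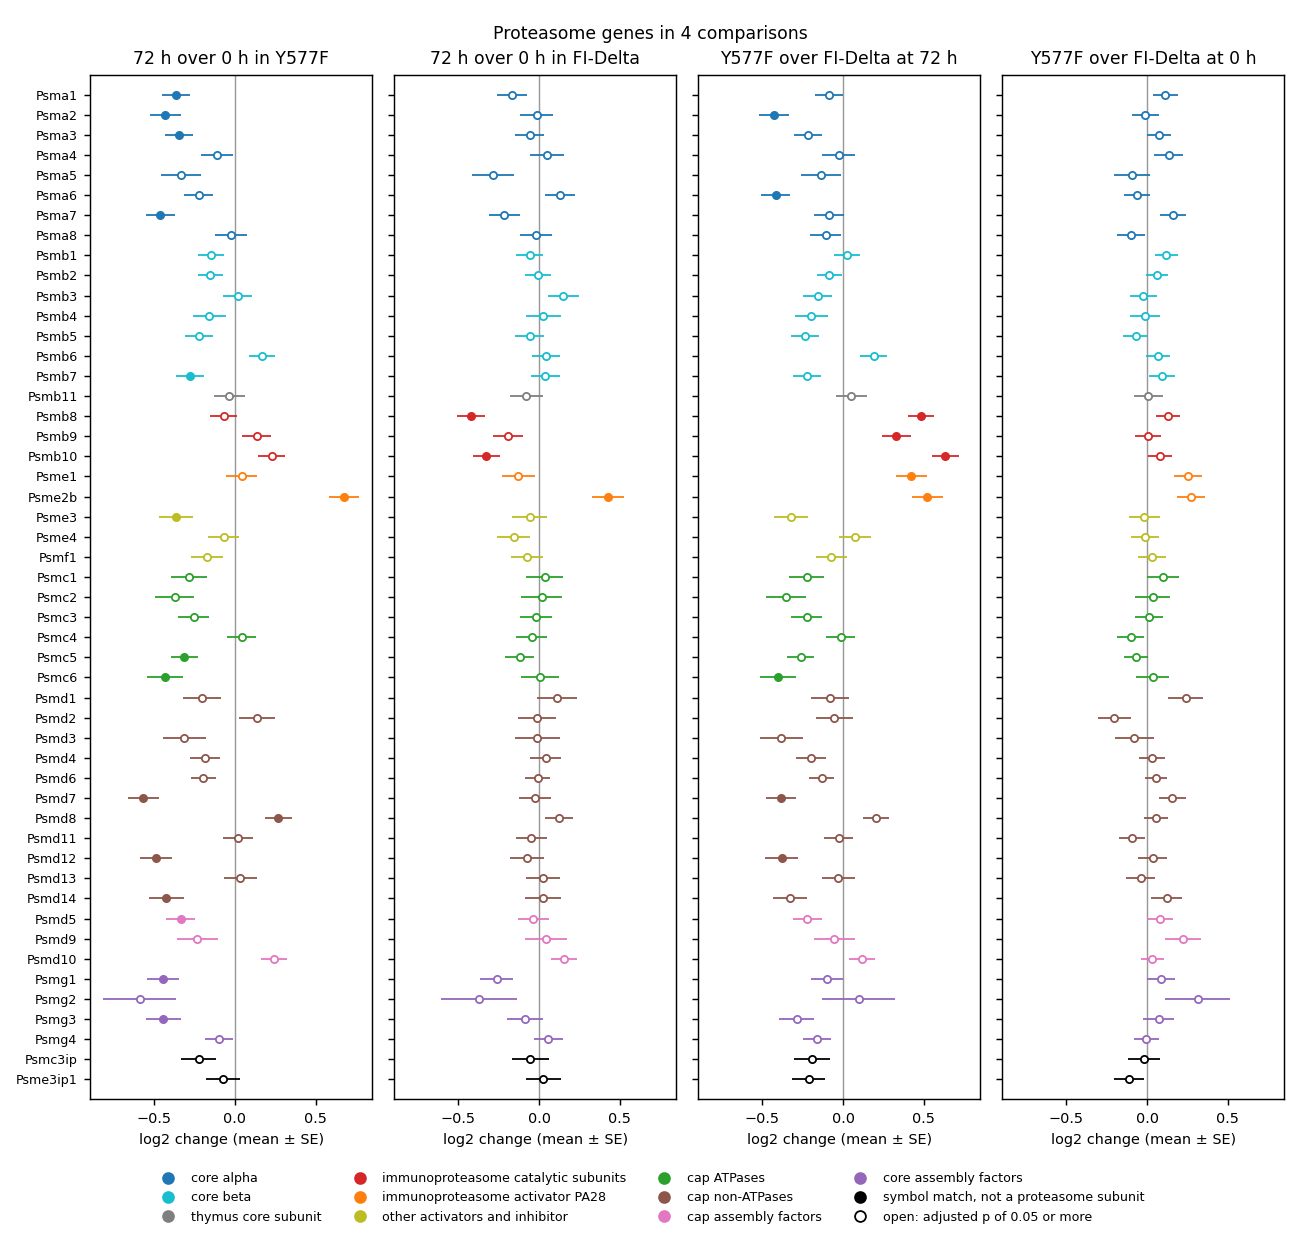
Log2 change with its standard error (x axis) for each of the 50 members (y axis, coloured by class) in the 4 comparisons. Filled points passed an adjusted p of 0.05. In Y577F cells over time most core and cap points lie left of 0, and at 72 h the 5 immunoproteasome and PA28 points lie right of it, between 0.33 and 0.63.

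The immunoproteasome catalytic subunits were higher in Y577F cells than in FI-Delta cells at 72 h, while limma called 0 of their 3 constitutive counterparts. Psmb10, the subunit that replaces Psmb7, had log2 ratios of 0.58 and 0.71 on the 72 h arrays. It was 1.55-fold higher in Y577F cells (0.63 ± 0.08, adjusted p 0.000334) and kept this call in all 22 other settings. Psmb8, which replaces Psmb5, had ratios of 0.61 and 0.25 and was 1.40-fold higher (0.48 ± 0.08, adjusted p 0.00226), a call lost in 3 of 22 settings, among them with the 72 h arrays alone (0.43, adjusted p 0.155). Both arrays were positive for each gene, with array 1 well above array 2 for Psmb8. Psmb9, which replaces Psmb6, had ratios of 0.41 and 0.29 and a change of 0.33 ± 0.09 (adjusted p 0.0315). Its call was the least secure of the 3. It was lost in 10 of 22 settings, among them without 72 h array 1 (0.23, adjusted p 0.29), without 72 h array 2 (0.41, adjusted p 0.0609), without Y577F array 2 (0.31, adjusted p 0.0581), and without FI-Delta array 1 (0.31, adjusted p 0.0715) or 3 (0.32, adjusted p 0.0673). Markers moved with these genes: at 72 h, 7 of 9 monocyte and macrophage genes were higher in Y577F cells (range of the 9, 0.01 to 2.22) and 10 of 11 neutrophil granule genes were lower (range of the 11, -3.94 to -0.36). Of 8 mast cell and basophil genes 3 were higher (range of the 8, -0.21 to 2.32), and of 5 erythroid and megakaryocyte genes 2 were higher and 1 lower (range of the 5, -0.37 to 1.75). Over all features, 6.44% were higher and 6.45% lower. The part of the markers in the result was not tested.

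Of the constitutive counterparts, Psmb5 and Psmb7 had negative values and Psmb6 a positive one, and each had an unadjusted p under 0.05. Psmb5 had ratios of -0.26 and -0.31 at 72 h and a modelled change of -0.24 ± 0.09, and Psmb7 had ratios of -0.24 and -0.21 and a change of -0.22 ± 0.09. Neither passed the threshold after adjustment (adjusted p 0.106 and 0.13). Psmb6 had ratios of 0.13 and 0.19 and a change of 0.19 ± 0.08 (adjusted p 0.169), so Psmb9 and its counterpart had the same sign. The difference between the modelled log2 changes of a pair, given as a description, was 0.85 for Psmb10 minus Psmb7, 0.72 for Psmb8 minus Psmb5 and 0.14 for Psmb9 minus Psmb6.

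Over time, limma called 0 of the 3 catalytic subunits in Y577F cells, with 1 at an unadjusted p under 0.05, and 2 of the 3 fell in FI-Delta cells. In Y577F cells, Psmb8 had ratios of 0.07 and -0.10 and a change of -0.07 ± 0.08. On the FI-Delta arrays it had ratios of -0.49, -0.44 and -0.60. All 3 were below both Y577F values, and Psmb8 fell in FI-Delta cells by 0.42 ± 0.09 (adjusted p 0.0105). Psmb10 had ratios of 0.01 and 0.43 in Y577F cells (0.23 ± 0.08, adjusted p 0.0831). In FI-Delta cells its ratios were -0.10, -0.56 and -0.20, and it fell by 0.32 ± 0.09 (adjusted p 0.0378). For Psmb10 too the ratios of the 2 lines did not overlap. FI-Delta arrays 1 and 2 are read as the same extracts, and the share of all features that separate in this way is not given. Psmb9 had ratios of -0.04 and 0.27 in Y577F cells (0.13 ± 0.09) and of -0.22, 0.02 and -0.18 in FI-Delta cells (-0.19 ± 0.09), which overlap and were not called. The difference between the lines in the change over time, Y577F minus FI-Delta, was 0.55 ± 0.09 for Psmb10 (adjusted p 0.00382), 0.35 ± 0.10 for Psmb8 (adjusted p 0.0409) and 0.33 ± 0.10 for Psmb9 (adjusted p 0.073). The first 2 were the members called higher in that difference, where 4.33% of all features were.

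Single arrays bore on several of these calls. The fall of Psmb8 in FI-Delta cells lost its call without FI-Delta array 3 (-0.39, adjusted p 0.0868). That of Psmb10 was lost in 13 of 22 settings, with adjusted p between 0.0532 and 0.141 without FI-Delta array 2 or 3, Y577F array 1, either 72 h array, or 0 h array 1 or 2. The number of members lower over time in FI-Delta cells was 0 without FI-Delta array 3 and 3 without 0 h array 3. The difference for Psmb8 was lost in 14 of 22 settings, including without any 1 of 8 arrays, with values between 0.30 and 0.42. The difference for Psmb10 was lost in 1 of 22, where the direct arrays alone were used. At 0 h the 3 genes had changes between the lines of 0.08 ± 0.07 for Psmb10, 0.13 ± 0.07 for Psmb8 and 0.00 ± 0.08 for Psmb9, and none was called.

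**Figure D3:**
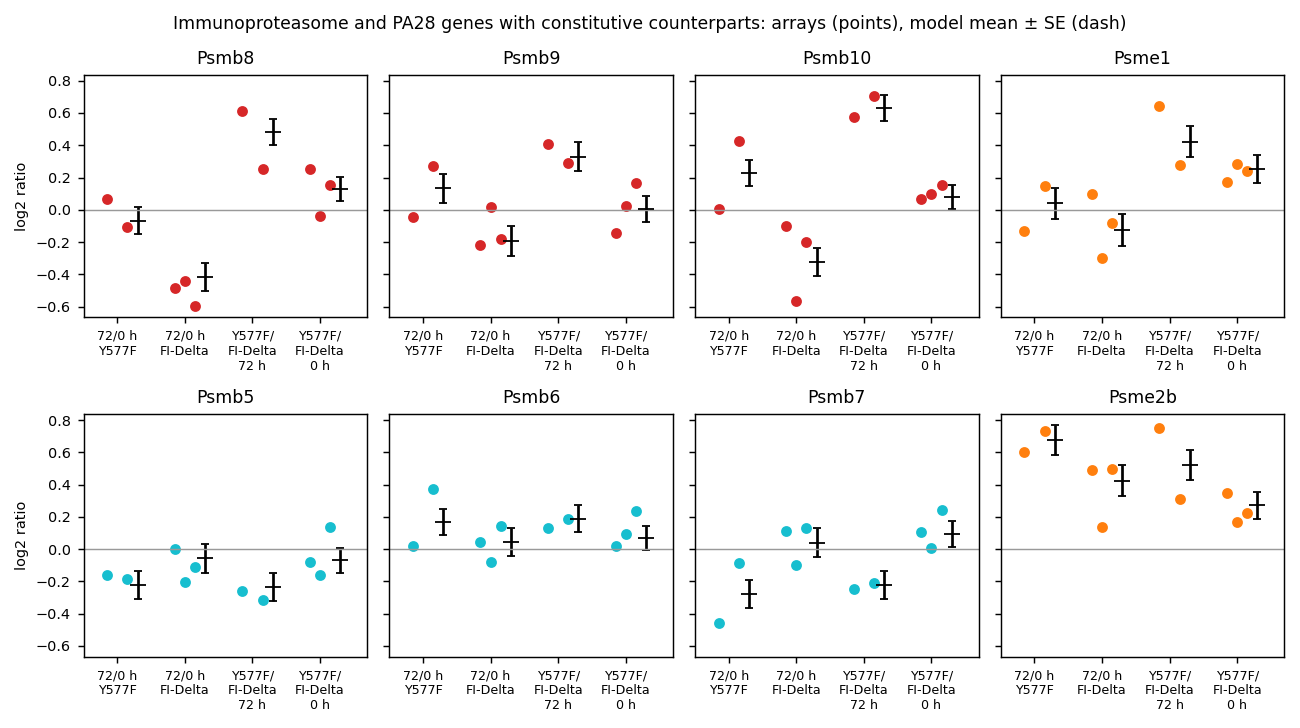
Log2 ratio on each array (points, y axis) and model mean with standard error (dash) in the 4 comparisons (x axis) for the immunoproteasome subunits Psmb8, Psmb9 and Psmb10, the PA28 genes Psme1 and Psme2b, and the constitutive subunits Psmb5, Psmb6 and Psmb7. Psmb8 lies between -0.60 and -0.44 on the FI-Delta arrays and above 0 on both 72 h arrays, and Psmb5 and Psmb7 lie below 0 at 72 h.

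The array probes of both PA28 activator genes were also higher in Y577F cells at 72 h, though a control spot for Psme1 was lower. The Psme2b probe had ratios of 0.75 and 0.31 on the 72 h arrays and was 1.44-fold higher (0.52 ± 0.09, adjusted p 0.00322). It also rose over time in both lines. The ratios were 0.60 and 0.73 in Y577F cells, a 1.60-fold rise (0.68 ± 0.09, adjusted p 0.000419) that kept its call in 22 of 22 settings. In FI-Delta cells they were 0.49, 0.14 and 0.49 (0.42 ± 0.10, adjusted p 0.0205). All 5 time arrays were positive, and the difference between the lines did not pass (0.25 ± 0.11, adjusted p 0.19). At 0 h the probe had ratios of 0.35, 0.17 and 0.22 (0.27 ± 0.08, adjusted p 0.198). The 72 h call was lost in 4 of 22 settings, among them without 72 h array 1 (0.40, adjusted p 0.0706) and with the 72 h arrays alone (0.53, adjusted p 0.0779). The FI-Delta call was lost without FI-Delta array 1 (0.34, adjusted p 0.0783) or 3 (0.35, adjusted p 0.163), 0 h array 1 (0.42, adjusted p 0.0587) or 72 h array 2 (0.36, adjusted p 0.0618).

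Psme1, the other PA28 gene, had ratios of 0.64 and 0.28 on the 72 h arrays and was 1.34-fold higher in Y577F cells (0.42 ± 0.10, adjusted p 0.0126). Its changes over time were 0.04 ± 0.10 in Y577F cells and -0.13 ± 0.10 in FI-Delta cells, and neither was called. At 0 h its ratios were 0.18, 0.28 and 0.24 (0.25 ± 0.09, adjusted p 0.234), positive on all 3 arrays of the probe. The 72 h call of the probe was lost without 72 h array 1 (0.27, adjusted p 0.197) and with the 72 h arrays alone (0.46, adjusted p 0.125). A control spot that the platform also lists as Psme1, which was left out of the model, went against the probe. At 72 h it was lower in Y577F cells by 1.10 ± 0.10 on the log2 scale (-1.10, adjusted p 1.80e-05), and over time it changed by 0.48 ± 0.10 in Y577F cells and 1.09 ± 0.10 in FI-Delta cells. At 0 h it was lower in Y577F cells too (-0.48 ± 0.09, adjusted p 0.0213). A further control spot that the platform lists as Psme1 is labelled mixed here after its spot name. It was at -0.32 ± 0.10 at 72 h (adjusted p 0.0516) and -0.20 ± 0.09 at 0 h. Over time it changed by 0.07 ± 0.10 in Y577F cells and 0.20 ± 0.10 in FI-Delta cells. With the control spots kept in the gene's average, Psme1 came to -0.33 at 72 h. The direction for Psme1 therefore rests on the choice of spot, and which one reports the gene was not tested.

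**Figure D4:**
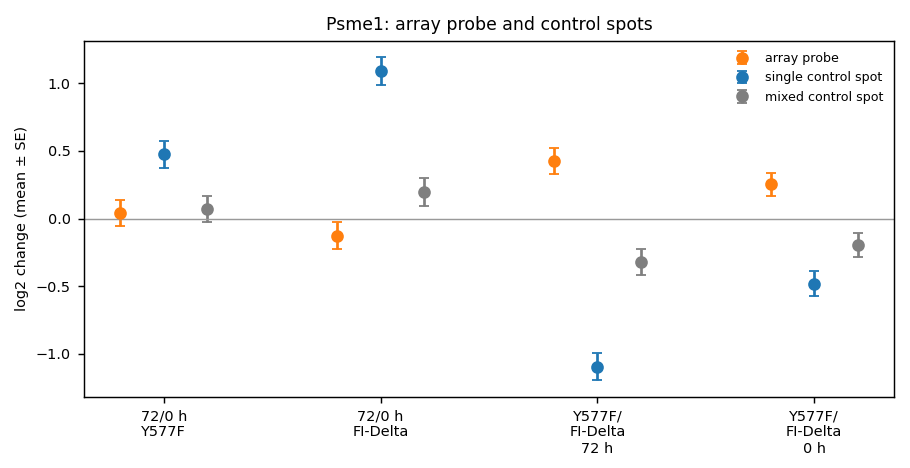
Log2 change with its standard error (y axis) in the 4 comparisons (x axis) for the Psme1 array probe and 2 control spots listed as Psme1. The spots are labelled single and mixed after their spot names. At 72 h the probe was at 0.42 and the single control spot at -1.10.

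Of the 8 core alpha subunits, 4 were lower at 72 h than at 0 h in Y577F cells, where 8.75% of all features were lower. All 8 modelled values were negative, with a median of -0.34 (range -0.46 to -0.02). Psma7 had ratios of -0.49 and -0.35 and fell by 0.46 ± 0.09 (adjusted p 0.00425), and Psma2 had ratios of -0.64 and -0.14 and fell by 0.43 ± 0.10 (adjusted p 0.00816). Psma1 had ratios of -0.36 and -0.29 (-0.36 ± 0.09, adjusted p 0.0125), and Psma3 of -0.29 and -0.32 (-0.35 ± 0.09, adjusted p 0.0154). Both arrays were negative for all 4, with the 2 arrays close together for Psma1 and Psma3 and far apart for Psma2. In FI-Delta cells limma called 0 of the 8, with 2 at an unadjusted p under 0.05, and their median was -0.04 (range -0.29 to 0.13). Psma1 and Psma7 were negative on all 3 FI-Delta arrays too (-0.24, -0.23 and -0.17 for Psma1, and -0.22, -0.18 and -0.38 for Psma7), without passing the threshold. The marker lists of other myeloid cells given above moved over the same interval as the core and cap subunits, and their part in these falls was not tested.

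Psma2 was the alpha subunit in which the lines differed over time (-0.42 ± 0.11, adjusted p 0.0364). Its FI-Delta ratios were 0.12, -0.16 and 0.01, which overlap the Y577F ones. At 72 h it was lower in Y577F cells (-0.42 and -0.52 on the arrays, -0.43 ± 0.10, adjusted p 0.0118), as was Psma6 (-0.24 and -0.53, -0.42 ± 0.09, adjusted p 0.00974). All 8 alpha values were negative at 72 h, with a median of -0.12. The calls of Psma1, Psma2, Psma3 and Psma7 over time were lost without Y577F array 1 (values between -0.39 and -0.32, adjusted p between 0.0796 and 0.136). At 72 h, the call of Psma2 was lost without 72 h array 2 (-0.28, adjusted p 0.198) and that of Psma6 without either 72 h array (-0.44, adjusted p 0.0601 and 0.0644). The difference for Psma2 was lost in 11 of 22 settings, without any 1 of 7 arrays among them. Psma8, the alpha subunit of the testis, changed by no more than 0.11 in any of the 4 comparisons.

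Of the 7 constitutive beta subunits, 1 fell over time in Y577F cells, where 8.75% of all features fell. Their median change was -0.15 (range -0.28 to 0.17). Psmb7 had ratios of -0.46 and -0.09 and fell by 0.28 ± 0.09 (adjusted p 0.0484), a call lost in 16 of 22 settings, 9 of which leave out 1 array. In FI-Delta cells 0 of 7 were called by limma and 0 had an unadjusted p under 0.05, with a median of 0.03. At 72 h, 0 of 7 were called and 3 had an unadjusted p under 0.05. Psmb11, the thymus beta subunit, changed by between -0.08 and 0.05 in the 4 comparisons.

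Of the 17 cap subunits, 5 were lower and 1 higher at 72 h in Y577F cells, where 8.75% and 9.28% of all features were. The median of the 17 was -0.25. Psmd7, a scaffold subunit that pairs with the deubiquitinase Psmd14, had ratios of -0.82 and -0.21 and fell by 0.57 ± 0.10, a 1.48-fold drop (adjusted p 0.00141). Psmd12 had ratios of -0.71 and -0.28 and fell by 0.49 ± 0.10 (adjusted p 0.00559). Psmd14, which removes ubiquitin chains from the substrate, had ratios of -0.41 and -0.30 and fell by 0.42 ± 0.11 (adjusted p 0.0159). For Psmd7 and Psmd12, array 1 lay well below array 2, while the arrays of Psmd14 were close. The ATPases Psmc6 (-0.41 and -0.39, modelled -0.43 ± 0.11, adjusted p 0.0193) and Psmc5 (-0.21 and -0.38, modelled -0.31 ± 0.08, adjusted p 0.0234) also fell. Psmd8 went against them, with ratios of 0.35 and 0.17 (0.27 ± 0.08, adjusted p 0.0437), a call lost in 13 of 22 settings, 7 of which leave out 1 array. In FI-Delta cells limma called 0 of 17 and 0 had an unadjusted p under 0.05. The median there was -0.01 and the range -0.12 to 0.12. The FI-Delta arrays did not agree in sign for the 6 ATPases, whose median was -0.21, 0.13 and -0.20 on arrays 1, 2 and 3.

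**Figure D5:**
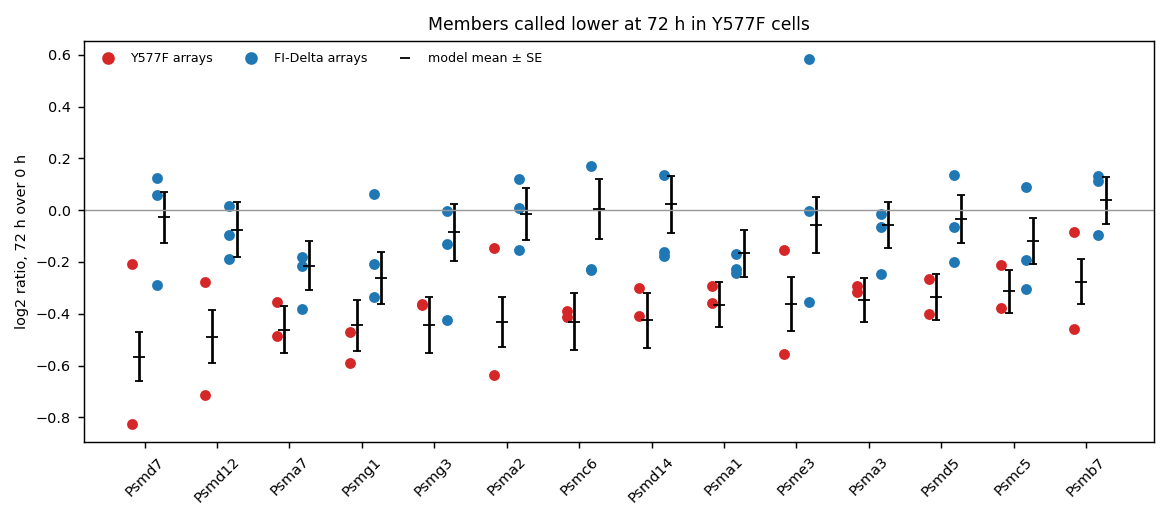
Log2 ratio of 72 h over 0 h (y axis) on each Y577F array (left, red) and each FI-Delta array (right, blue), with the model mean and standard error (dashes), for the 14 members called lower in Y577F cells (x axis). All Y577F points lie below 0, from -0.82 to -0.09, and the FI-Delta points lie on both sides of it for most members.

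The lines differed in the change over time for 3 cap subunits, in addition to Psma2 among the core subunits. The difference was -0.54 ± 0.11 for Psmd7 (adjusted p 0.01), -0.45 ± 0.12 for Psmd14 (adjusted p 0.0411) and -0.41 ± 0.12 for Psmd12 (adjusted p 0.0484), where 4.91% of all features were called lower. The FI-Delta arrays gave 0.06, -0.29 and 0.12 for Psmd7, -0.18, -0.16 and 0.14 for Psmd14, and -0.10, -0.19 and 0.02 for Psmd12. They overlapped the Y577F arrays for Psmd7 and lay above them for Psmd14 and Psmd12. Here too the share of all features that separate in this way is not given. At 72 h, 3 of 17 cap subunits were lower in Y577F cells, where 6.45% of all features were, and 16 of 17 values were negative. Psmc6 had ratios of -0.11 and -0.76 (-0.40 ± 0.11, adjusted p 0.0357), Psmd7 of -0.60 and -0.27 (-0.38 ± 0.10, adjusted p 0.0205) and Psmd12 of -0.31 and -0.43 (-0.38 ± 0.10, adjusted p 0.0307). At 0 h limma called 0 of 17, with 1 at an unadjusted p under 0.05 (Psmd1, 0.24 ± 0.11).

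Of the cap calls, the fall of Psmd7 over time in Y577F cells kept its side of the threshold in all 22 settings. Those of Psmd12, Psmc5, Psmc6 and Psmd14 were lost without Y577F array 1 (values between -0.48 and -0.29, adjusted p between 0.0671 and 0.268), and those of Psmc5 and Psmd14 also without Y577F array 2 (adjusted p 0.0888 and 0.0549). Psmc5 was lost without FI-Delta array 3 as well (adjusted p 0.0531). At 72 h, Psmd7 lost its call without either 72 h array (-0.34 and -0.35, adjusted p 0.16 and 0.167). Psmc6 and Psmd12 lost theirs without either 72 h array, 0 h array 2, Y577F array 1 or FI-Delta array 3 (adjusted p between 0.0514 and 0.338). Without 1 array the number of members lower at 72 h was 1 (72 h array 1), 0 (72 h array 2), 3 (0 h array 2, Y577F array 1 or FI-Delta array 3) or 10 (0 h array 3), and the number higher was 2 without 72 h array 1. For the difference, Psmd7 was lost without 0 h array 1 (-0.43, adjusted p 0.0542) or 72 h array 2 (-0.51, adjusted p 0.0651). Psmd12 and Psmd14 were lost in 15 and 13 of 22 settings, of which 9 and 8 leave out 1 array. The number lower in the difference was 0 without 0 h array 1 or 72 h array 2, 1 without FI-Delta array 3, Y577F array 1 or 72 h array 1, 2 without FI-Delta array 2 or 0 h array 2, and 7 without Y577F array 2. For the change over time in Y577F cells, 2 members were lower without Y577F array 1 and 10 without array 2.

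Of the 4 assembly factors of the core, 2 fell over time in Y577F cells, where 8.75% of all features fell. Psmg1 and Psmg2 form a pair that guides the alpha ring, as do Psmg3 and Psmg4. Psmg1 had ratios of -0.59 and -0.47 and fell by 0.44 ± 0.10 (adjusted p 0.00766), and Psmg3 had ratios of -0.37 and -0.36 and fell by 0.44 ± 0.11 (adjusted p 0.0128). Their partners were not called, with -0.59 ± 0.23 for Psmg2 and -0.10 ± 0.09 for Psmg4. The calls were lost without Y577F array 2 (Psmg1 -0.42, adjusted p 0.0614, and Psmg3 -0.47, adjusted p 0.0597), and that of Psmg1 also without array 1 (-0.34, adjusted p 0.137). In FI-Delta cells limma called 0 of 4, with 1 at an unadjusted p under 0.05 (Psmg1, -0.26 ± 0.10). Of the cap chaperones, Psmd5 had ratios of -0.27 and -0.40 in Y577F cells and fell by 0.33 ± 0.09 (adjusted p 0.0232). That call was lost without either Y577F array (adjusted p 0.0986 and 0.129) or 72 h array 1 (adjusted p 0.0528). Psmd9 changed by -0.23 ± 0.13 and Psmd10 by 0.24 ± 0.08, and neither was called.

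Among the other regulators, Psme3, which encodes the nuclear activator of the core, had ratios of -0.55 and -0.16 in Y577F cells and fell by 0.36 ± 0.11 (adjusted p 0.0333), a call lost in 11 of 22 settings, among them without either Y577F array (adjusted p 0.127 and 0.156), FI-Delta array 2 or 3, or 72 h array 1 (adjusted p between 0.0655 and 0.0905). The FI-Delta arrays gave 0.58, -0.36 and -0.00 for it and did not agree in sign. The activator Psme4 and the inhibitor Psmf1 changed by -0.07 ± 0.10 and -0.17 ± 0.10 in Y577F cells. The genes that only match the symbol, Psmc3ip and Psme3ip1, changed by -0.23 ± 0.11 and -0.07 ± 0.10 there and were not called in any comparison.

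Of the 14 members lower in Y577F cells over time, 12 had a promoter window. The NF-Y box was found in 6 of the 12, the cores of the antioxidant response element and of the ETS site in 5 each, that of the gamma-activated site in 1 and that of the interferon-stimulated response element in 0. In this order, the shares over all windows were 37.9%, 41.4%, 9.12%, 8.47% and 3.49%. Over the 42 members they were 35.7%, 52.4%, 33.3%, 7.14% and 11.9%. Psmd12 and Psmc6, printed above, both held an ETS core and fell, and Psma2 fell with none in its window. These genes were picked by hand, and whether a motif goes with a fall was not tested.

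Partners of the proteasome were counted from a list of which 19 genes were measured. Calls for them, and for the ubiquitin genes below, were not tested in the other settings. In Y577F cells over time 5 were lower and 1 higher, where 8.75% and 9.28% of all features were. The median of the 19 was -0.12. Uchl5, the deubiquitinase bound to the cap, had ratios of -0.76 and -0.51 and fell by 0.64 ± 0.10 (adjusted p 0.000972). Its change in FI-Delta cells was 0.07 ± 0.11, and the lines differed (-0.71 ± 0.12, adjusted p 0.00315). Nfe2l2, an activator of antioxidant genes, had ratios of 0.76 and 1.13 in Y577F cells and rose by 0.93 ± 0.12 (adjusted p 0.000221). The other 4 that fell were the shuttle factors Rad23b (-0.41 ± 0.08) and Ubqln4 (-0.42 ± 0.11), the cap partner Txnl1 (-0.33 ± 0.08) and Fbxo7 (-0.36 ± 0.11). In FI-Delta cells 3 of 19 fell and 0 rose, where 2.97% of all features fell and 5.19% rose. The 3 were Ubqln4 (-0.50 ± 0.12), Ubqln2 (-0.46 ± 0.08) and Rad23b (-0.30 ± 0.08). The 2 shuttle factors Rad23b and Ubqln4 thus fell in both lines.

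At 72 h, 3 of the 19 partners were higher and 1 lower in Y577F cells, where 6.44% and 6.45% of all features were. Nfe2l1, which encodes the factor that induces proteasome genes when proteasome activity is lost, had ratios of 0.42 and 0.91 (0.63 ± 0.13, adjusted p 0.00773). Nfe2l2 had ratios of 0.80 and 0.57 (0.70 ± 0.12), Ubqln2 of 0.44 and 0.52 (0.50 ± 0.08), and Uchl5 of -0.50 and -0.72 (-0.60 ± 0.10). The higher Nfe2l1 RNA stood beside core and cap values of which 29 of 32 were negative. Of 6 measured genes for ubiquitin supply and activation, 1 was called over time in Y577F cells, the ubiquitin-conjugating enzyme gene Ube2r2 (0.28 ± 0.09, adjusted p 0.0395). Of all features, 9.28% rose there. In the other 4 comparisons limma called 0 of the 6, with 0 at an unadjusted p under 0.05.

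The genes that take the peptides onward to MHC class I were counted from a list of 14 measured, which also holds the transcription factors Irf1, Irf2 and Irf8. The calls of this list too were not tested in the other settings. At 72 h, 6 were higher in Y577F cells and 0 lower, where 6.44% and 6.45% of all features were. Of the 14 values, 13 were positive. Tapbp, which holds MHC class I at the peptide transporter, had ratios of 1.02 and 1.09 (1.05 ± 0.11, adjusted p 4.98e-05), and B2m, the light chain of MHC class I, had 0.90 and 0.72 (0.94 ± 0.13, adjusted p 0.00045). Tap1, the transporter subunit that shares its promoter stretch with Psmb9, had ratios of 0.31 and 0.45 (0.36 ± 0.08, adjusted p 0.0108), next to 0.41 and 0.29 for Psmb9. The others were Irf8, a transcription factor of the monocyte lineage (0.87 ± 0.08), and the MHC class I heavy chain genes H2-Q7 (0.68 ± 0.09) and H2-D1 (0.59 ± 0.11). At 0 h 1 of 14 was called, H2-Q7, higher in Y577F cells (0.69 ± 0.08, adjusted p 0.00112), where 0.934% of all features were higher.

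Over time, 6 of the 14 rose and 1 fell in Y577F cells, and 2 rose and 2 fell in FI-Delta cells. Over all features, 9.28% rose and 8.75% fell in Y577F cells, and 5.19% rose and 2.97% fell in FI-Delta cells. B2m rose in both lines, with ratios of 1.51 and 1.76 in Y577F cells and of 0.41, 0.94 and 0.32 in FI-Delta cells, and so did Irf8 (1.19 ± 0.08 and 0.35 ± 0.08). Tapbp rose in Y577F cells (1.02 and 0.59 on the arrays, 0.81 ± 0.11), as did Tap1 (0.34 and 0.22, 0.29 ± 0.08), H2-D1 (0.34 ± 0.11) and Irf1, an interferon-responsive transcription factor (0.31 ± 0.09). H2-Q7 fell in both lines (-0.47 ± 0.09 and -0.46 ± 0.09). Calr, a chaperone of MHC class I folding, fell in FI-Delta cells (-0.50 ± 0.11). The lines differed over time for Tapbp (1.06 ± 0.12), Irf8 (0.84 ± 0.09), B2m (0.82 ± 0.15) and Tap1 (0.36 ± 0.09). These were the 4 genes of this list called in that difference, where 4.33% of all features were called higher.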

How the data were processed

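RNA of 4 groups was hybridised in pairs to 10 arrays. For each array the authors deposited a normalised ratio per spot, read here as log2. limma is named for it, per the submitters' processing notes, with no version or settings. How background was corrected and ratios were normalised is not given in the sources used here. The medians of the 10 arrays were within -0.0162 to 0.00904. Spot signals were not used, so depth is unknown, and precision is set by the few arrays.

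The 1243 control spots among 23040 were dropped, 8 of which carry the symbols of 4 members (Psmc1, Psmb3, Psme1 and Psmb2). Probes of 1 gene were averaged. The 50 members had 51 probes, named from the platform annotation, and Psmb8 had 2, which moved alike in size. Fitted singly by limma, 1 of them passed for the fall in FI-Delta cells (-0.45, adjusted p 0.00651) and the other did not (-0.38, adjusted p 0.0809). The same held for the difference between the lines (0.35 for each, adjusted p 0.0405 and 0.139). FI-Delta arrays 1 and 2 of the time comparison were averaged, which left 9 hybridisations. limma 3.58.1 in R 4.3.3 fitted 3 coefficients and a dye term to each feature (5 residual and 6.34 prior degrees of freedom). Tests were two-sided and adjusted over 20243 features within each comparison. For the replicate block, the numbers in the titles were taken as 2 cultures of FI-Delta (1, 2) and 2 of Y577F (3, 4), read by line, although the labels of 3 arrays with Y577F RNA in Cy5 give these numbers to the opposite lines. The fit was tested on simulated data. Alternatives were another normalization, dye, probe and array handling, and leaving out each array.

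The members, lists and motifs were chosen with earlier results of these data known. Named genes are the called members, the immunoproteasome genes and their counterparts, and the largest changes of a class without calls. Other genes of the pathway were named when called and among the largest of their list in a comparison. Values named for single arrays, and other uncalled members, were chosen after their values were seen. Promoters came from RefSeq (GRCm38.p6), with the first listed window for a gene. Pair differences and motif counts were not tested.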

Additional observations from a re-analysis of the deposited data

Results flagged for a closer look

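For 6 members the change over time differed between Y577F and FI-Delta cells by the model's own test of that difference (Y577F change minus FI-Delta change, log2). Psmb10 (0.55) and Psmb8 (0.35), catalytic subunits of the immunoproteasome, fell in FI-Delta cells by a called amount and were not called in Y577F cells. Psmd7 (-0.54), Psmd14 (-0.45), Psmd12 (-0.41) and Psma2 (-0.42), subunits of the cap and the core, fell in Y577F cells and were not called in FI-Delta cells. Psmb10 kept the call in 21 of 22 other settings and Psmd7 in 18, while the other 4 kept it in 7 to 11. Groups of 4 or more arrays were not available, so no array was tested as an outlier.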

How the results depend on the processing

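The 35 calls made for members were set against 22 other settings each, 770 in all: 565 kept the call, 204 lost it in the same direction and 1 turned it. Some settings could hardly move a call, which raises the number kept. With at most 2 probes a member, the median of probes equals their mean. Single-probe fits took the probe with the smallest p, and keeping control spots altered the values of only 4 members. The number of members called, without 1 array, lay between 1 and 2 higher and 2 and 14 lower over time in Y577F cells, 0 and 1 higher and 0 and 3 lower over time in FI-Delta cells, 2 and 5 higher and 0 and 10 lower at 72 h, and 1 and 2 higher and 0 and 7 lower in the difference between the lines. It was 0 at 0 h under every setting run. From the arrays of each comparison alone, 1 was higher and 4 lower over time in Y577F cells, 0 higher and 1 lower in FI-Delta cells, 1 higher and 0 lower at 72 h, and 0 and 0 in the difference. With a replicate block, 1 was higher at 72 h, and 2 were lower there with a dye term and 1 without it. The 72 h calls lost under the block include Psmb8 (adjusted p 0.0548 with the dye term and 0.13 without), Psme2b (0.07 and 0.103) and Psme1 (0.185 and 0.252). The block gave 1 lower in FI-Delta cells and 1 higher in the difference, with 2 lower with the dye term and 0 without. Without the dye term it also gave 0 higher in FI-Delta cells and 1 higher in Y577F cells. The numbers were not shown to pair the samples: the culture differences at 0 h and 72 h correlated at -0.345 over all features, and at 0.20 with the dye term removed, from 2 cultures a line. On 3 arrays the labels give the numbers to the opposite lines, so the block and these correlations rest on how they were read. Array weights gave 4 lower in FI-Delta cells, 13 lower at 72 h and 4 higher in the difference. Leaving out the dye term, quantile normalization, and centring and scaling each gave 1 lower in FI-Delta cells, 1 higher in Y577F cells and 1 higher in the difference. Leaving out the dye term and quantile normalization gave 3 lower at 72 h, and quantile normalization and scaling gave 1 and 2 lower in the difference. Entering the dye swap as 2 arrays gave 1 higher in Y577F cells. With control spots kept, an alternative chosen after seeing the data, 2 were higher in FI-Delta cells, and Psme1 turned to 0.39 there and to -0.33 at 72 h. The cause of these changes was not tested. The few arrays limit what can be called, and a missed call does not show that a gene stayed level. Each array left out also leaves fewer residual degrees of freedom.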

Other observations

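The assembly factor Psmg2 had a log2 ratio of 1.42 on 0 h array 3, against -0.30 and 0.07 on 0 h arrays 1 and 2, which was the widest spread of a member on arrays of the same comparison. Its standard error of 0.20 at 0 h lay above the median of 0.0857 over the members.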
